A study of Mus musculus with 4 samples.

Results

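Gata4, Gata2, Gata6, Maf, Meis1, Meis2 and Tfec, 7 transcription factor genes tied to the identity of liver sinusoidal endothelial cells (LSECs), were followed in RNA-seq of primary mouse LSECs. They were chosen by gene symbol, and all 7 were found among the 18373 genes of the deposited table. All 7 also passed the filter on low counts, which kept 13628 genes. The study asked what silencing the long non-coding RNA *Airn* does to LSECs. Cells were isolated from the livers of Balb/c mice aged 8 weeks by enzyme perfusion, and the methods for LSECs add a density gradient and magnetic beads against CD146, an endothelial surface protein. They were cultured for 24 h, transfected for 48 h and harvested at day 3. The 2 NC libraries received a control siRNA and the 2 libraries labelled si*Airn* received siRNA against *Airn*, with no other allele or agent in either group. The labels of both si*Airn* libraries name the first siRNA, whereas the protocol speaks of a pair of separate siRNAs, so the siRNA given to each of them is uncertain. The labels call the replicates biological but do not say which mice they came from, and the p-values below measure the spread between these 4 libraries alone.

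LSECs are fenestrated and lack an organised basement membrane, which sets them apart from the continuous endothelium of most capillaries. GATA factors are zinc-finger proteins that bind GATA motifs, often with a Friend of GATA (FOG) cofactor. GATA4 is known as a factor that specifies the sinusoidal state in the developing and adult liver, and its loss from liver endothelium is known to give a continuous, capillarized endothelium with fibrosis. GATA2 serves endothelial and blood cells, and GATA6 is a close relative of GATA4 that other liver cells also use. c-MAF, the product of *Maf*, is a large basic leucine zipper protein known to drive sinusoidal genes in cultured endothelial cells and also acts in macrophages. MEIS1 and MEIS2 are TALE homeodomain proteins that act as partners of PBX and HOX proteins. TFEC belongs to the MiT/TFE family of helix-loop-helix proteins that bind E-boxes and is known in macrophages and in sinusoidal endothelium.

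The sequence in front of these genes was read for words that GATA, MAF, MEIS and TFEC proteins are known to bind, because that is where one of the factors could act on another. Promoter windows from RefSeq (GRCm38.p6), running from 250 bases before to 50 bases after a transcription start, were at hand for 4 of the 7 genes, *Gata2* (with a pair of starts), *Meis1*, *Meis2* and *Tfec*. Both strands were searched. The words searched for GATA factors, AGATAA as well as the similar TGATAA, were present in 18.6% of all 32851 windows of this length. For MAF they were TGCTGAC as well as the similar TGCTGAG, present in 12.1%, and for MEIS the single word TGACAG, present in 19.2%. For TFEC they were the E-box CACGTG as well as its relative CATGTG, present in 20.4%. No letters of these words were shared between hits in the windows shown here. The *Tfec* window on chromosome 6 held 1 GATA word and the *Meis1* window on chromosome 11 held 1 TFEC word, while the windows of *Gata2* and *Meis2* held none of the 4 kinds. *Tfec* and *Meis1* are printed as the windows of those 4 genes that carry a searched word. Beside them stand *Zfpm1*, which encodes the GATA cofactor FOG1, and *Wnt2*, which encodes a signal that LSECs send to hepatocytes, because both fell in the libraries labelled si*Airn* (values below) and hold a GATA or MAF word. *Clec4g*, *Fcgr2b* and *Flt4*, which also fell, hold none of the searched words in their windows, and the windows of *Stab1* and *Mrc1* hold MEIS and TFEC words but no GATA or MAF word. *Bach1*, which rose, also holds a MAF word. Among the windows of *Tfeb*, which fell, some hold MEIS words and none holds a word of another kind. These are not all the genes that fell, and no window of *Lyve1* was read. Each window is written in the direction of its gene, with the word in capitals.
Tfec, chr6:16898392-16898691, minus strand: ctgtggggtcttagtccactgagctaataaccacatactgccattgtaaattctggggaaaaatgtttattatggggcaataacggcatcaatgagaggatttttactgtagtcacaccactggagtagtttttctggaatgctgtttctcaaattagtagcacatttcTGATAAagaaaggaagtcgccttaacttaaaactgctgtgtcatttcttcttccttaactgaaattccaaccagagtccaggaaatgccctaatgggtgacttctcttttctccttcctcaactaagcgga
Meis1, chr11:19018920-19019219, minus strand: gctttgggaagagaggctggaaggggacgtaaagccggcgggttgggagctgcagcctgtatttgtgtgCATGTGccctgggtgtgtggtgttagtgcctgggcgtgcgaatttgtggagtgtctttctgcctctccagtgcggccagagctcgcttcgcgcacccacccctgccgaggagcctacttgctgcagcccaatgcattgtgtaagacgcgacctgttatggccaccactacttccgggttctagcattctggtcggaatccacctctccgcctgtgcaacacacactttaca
Zfpm1, chr8:122281891-122282190, plus strand: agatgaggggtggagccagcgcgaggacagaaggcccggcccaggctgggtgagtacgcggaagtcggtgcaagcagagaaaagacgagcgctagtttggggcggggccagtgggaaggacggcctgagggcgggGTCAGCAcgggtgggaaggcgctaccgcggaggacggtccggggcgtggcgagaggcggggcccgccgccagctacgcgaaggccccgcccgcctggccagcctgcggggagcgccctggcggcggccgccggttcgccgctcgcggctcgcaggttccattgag
Wnt2, chr6:18030396-18030695, minus strand: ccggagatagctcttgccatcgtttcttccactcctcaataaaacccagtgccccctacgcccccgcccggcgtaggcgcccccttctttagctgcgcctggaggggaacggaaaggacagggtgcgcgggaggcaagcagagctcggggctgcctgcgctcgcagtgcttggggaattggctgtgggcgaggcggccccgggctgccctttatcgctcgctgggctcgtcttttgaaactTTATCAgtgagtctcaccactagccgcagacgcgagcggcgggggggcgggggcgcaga
The GATA word began at position -81 from the *Tfec* start, and the TFEC word at -181 from the *Meis1* start. The MAF word of *Zfpm1* began at -115 and the GATA word of *Wnt2* at -9, each read from the strand opposite to the gene. A match describes the letters in the window and is no evidence of binding.

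The 4 libraries held between 17308382 and 18371959 estimated counts. Counts are given below as CPM, which scales them to the size of each library by edgeR's TMM factors, and the deposited FPKM values, which also divide by transcript length, are used wherever genes are compared with each other. The target itself did not have fewer reads after the siRNA. *Airn* had 7 and 3 counts in the NC libraries against 11 and 9 in those labelled si*Airn*, a ratio of 1.97 with an exact 95% binomial interval from 0.88 to 4.71 that covers counting error only. The value leaned on the few NC counts, with a log2 ratio of 0.98 over all libraries, 1.75 without NC replicate 1 and 0.45 without NC replicate 2. Every one of the 13 pan-endothelial markers was detected in all 4 libraries, with summed CPM of 12273 and 11639 in NC and 8926 and 7793 in si*Airn*. Macrophage, stellate cell and hepatocyte markers were detected too, at lower levels, and their sums are given beside the genes they move with. In bulk RNA, fewer cells of a type and less RNA per cell cannot be told apart.

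*Gata4* had the highest mean FPKM of the 7 genes over the 4 libraries, and its level placed it above 93.1% of all deposited genes in NC. Its FPKM was 76.5 and 74.9 in NC replicates 1 and 2 and 55.8 and 50.9 in si*Airn* replicates 1 and 2. *Meis2* followed with a mean FPKM of 56.3 over the 4 libraries and *Tfec* with 46.7. In si*Airn* alone *Meis2* averaged 53.41 against 53.35 for *Gata4*, and in si*Airn* replicate 1 *Meis2* was the higher, at 57.9. *Maf* had a mean FPKM of 31.9, *Gata6* of 9.25, *Gata2* of 8.24 and *Meis1* of 4.31. The 4 most abundant genes each came from a different family. The ranges over the 4 libraries overlapped between *Gata4* and *Meis2*, between *Meis2* and *Tfec*, and between *Gata6* and *Gata2*, so the order within these pairs is not settled. They did not overlap between *Tfec* and *Maf*, *Maf* and *Gata6*, or *Gata2* and *Meis1*. The gap between *Tfec* (lowest 42.2) and *Maf* (highest 38.1) was narrow, narrower than the spread within *Maf* itself. The levels depended on the transcript length used, since dividing CPM by the longest annotated transcript gave 17.7 for *Maf*, 31.7 for *Meis2* and 23.7 for *Tfec*. *Gata4* was 62.5, *Gata6* 7.50, *Gata2* 7.20 and *Meis1* 1.77 on that scale, so the order of the 7 genes was the same.

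**Figure D1:**
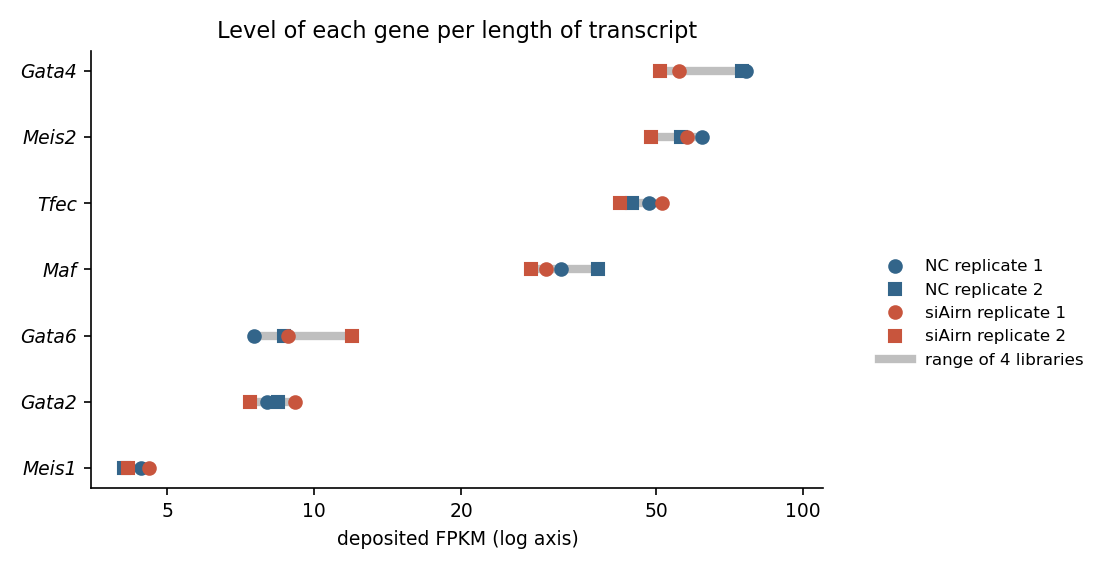
Deposited FPKM of the 7 genes on a log axis, ordered by their mean over the 4 libraries. Points are libraries (circles replicate 1, squares replicate 2, blue NC, red siAirn) and grey bars span the 4 libraries. Gata4 (50.9 to 76.5) and Meis2 (48.9 to 62.2) overlap at the top, and Meis1 (4.08 to 4.58) lies below all others.

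Among the GATA factors, *Gata4* was the one gene of the 7 that changed by the test. Its counts were 4356 and 4521 in the NC libraries against 3253 and 2934 in those labelled si*Airn*. In CPM these were 254 and 249.9 against 180.0 and 166, so both si*Airn* libraries lay far below both NC libraries. The group means were 252 ± 3.04 CPM for NC against 173 ± 9.96 for si*Airn* (SD, n = 2 each). The level fell by 31.4%, with a log2 fold change of -0.54 (SE 0.067, 95% interval -0.70 to -0.39) and an adjusted p of 0.00709 by edgeR's quasi-likelihood test. Of the genes tested, 88.2% had a smaller absolute log2 fold change. Without NC replicate 1 or NC replicate 2 the log2 fold change was -0.53 or -0.56, and the gene did not pass. Those fits leave 1 NC library, which is assumed to vary like the others. Almost no gene of the table passed in them, where the fit to all 4 libraries called 16.8% of those tested. A call lost there is therefore not particular to a gene.

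*Gata6*, the close relative of *Gata4*, ran the other way in value without passing the test. Its CPM was 23.3 and 27.1 in NC and 26.7 and 36.4 in si*Airn*, so the groups overlapped and si*Airn* replicate 2 stood highest. The log2 fold change was 0.32 (SE 0.16, interval -0.05 to 0.69, adjusted p = 0.199 by edgeR). Its size leaned on that library, since leaving out si*Airn* replicate 2 gave 0.08 and leaving out si*Airn* replicate 1 gave 0.53. Within each replicate number the si*Airn* library was the higher. With the replicate number as a block *Gata6* passed at 0.32 (adjusted p = 0.0139 by edgeR), beside 35.5% of all genes called. The labels do not say whether equal numbers share a preparation. *Gata2* had 25.3 and 26.8 CPM in NC and 28.0 and 22.8 in si*Airn*, with both NC values between the si*Airn* values. Its log2 fold change was -0.03 (SE 0.12, interval -0.31 to 0.24, adjusted p = 0.868 by edgeR), so a change of the size seen for *Gata4* lies outside this interval. *Gata4* made up 83.1% and 81.4% of the summed FPKM of the 3 GATA genes in NC and 75.6% and 72.5% in si*Airn*. The share of *Gata6* was 8.17% and 9.44% in NC against 11.99% and 17.0% in si*Airn*, and that of *Gata2* was 8.70% and 9.18% against 12.4% and 10.5%. These shares are descriptions with no test of their own.

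*Maf* was lower in both si*Airn* libraries than in either NC library, short of the threshold. Its CPM was 114 and 136 in NC and 103 and 96.8 in si*Airn*, with the NC libraries further apart from each other than the si*Airn* libraries. The means were 125 ± 15.7 and 99.9 ± 4.41 CPM (SD, n = 2 each), which gives a log2 fold change of -0.33 (SE 0.095, interval -0.55 to -0.10) with an adjusted p of 0.0584 by edgeR. The unadjusted p was 0.0109. DESeq2 placed it just past the threshold at -0.32 (adjusted p = 0.0413), so its call depends on the test. Leaving out NC replicate 1 gave -0.45 and leaving out NC replicate 2 gave -0.19, and it passed without si*Airn* replicate 1 (-0.37, adjusted p = 0.0423 by edgeR). Reads of *Maf* may not all be its own. In the annotation 5.34% of its exonic bases lie under an antisense gene and 4.65% of its 50-base windows recur in other genes. The counting was not stated to use strand, and how many reads came from these stretches was not measured.

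*Meis2*, by far the more abundant of the MEIS genes, was 195 and 178 CPM in NC and 175 and 149 in si*Airn*. The lowest NC value and the highest si*Airn* value nearly met. In the deposited FPKM they crossed, at 56.2 in NC replicate 2 and 57.9 in si*Airn* replicate 1. The means were 187 ± 12.2 and 162 ± 18.2 CPM (SD, n = 2 each), with a log2 fold change of -0.21 (SE 0.092, interval -0.42 to 0.01, adjusted p = 0.167 by edgeR). The value leaned on single libraries, at -0.096 with si*Airn* replicate 2 left out and at -0.33 with the other si*Airn* library left out, where it passed (adjusted p = 0.0379 by edgeR). *Meis1* had few counts, 238 and 229 in the NC libraries against 251 and 228 in those labelled si*Airn*, or 13.9 and 12.7 CPM against 13.9 and 12.9. The groups coincided, with a log2 fold change of 0.01 (SE 0.12, interval -0.27 to 0.29, adjusted p = 0.953 by edgeR). In the annotation 17.0% of the 50-base windows of *Meis1* recur in other genes, the highest share of the 7, although its deposited counts were whole numbers. *Meis2* supplied 93.4% and 93.2% of the summed FPKM of both MEIS genes in NC and 92.7% and 92.2% in si*Airn*. *Tfec* had 84.4 and 77.5 CPM in NC and 87.2 and 71.3 in si*Airn*, so si*Airn* held both the highest and the lowest value. Its log2 fold change was -0.03 (SE 0.10, interval -0.28 to 0.22, adjusted p = 0.865 by edgeR).

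**Figure D2:**
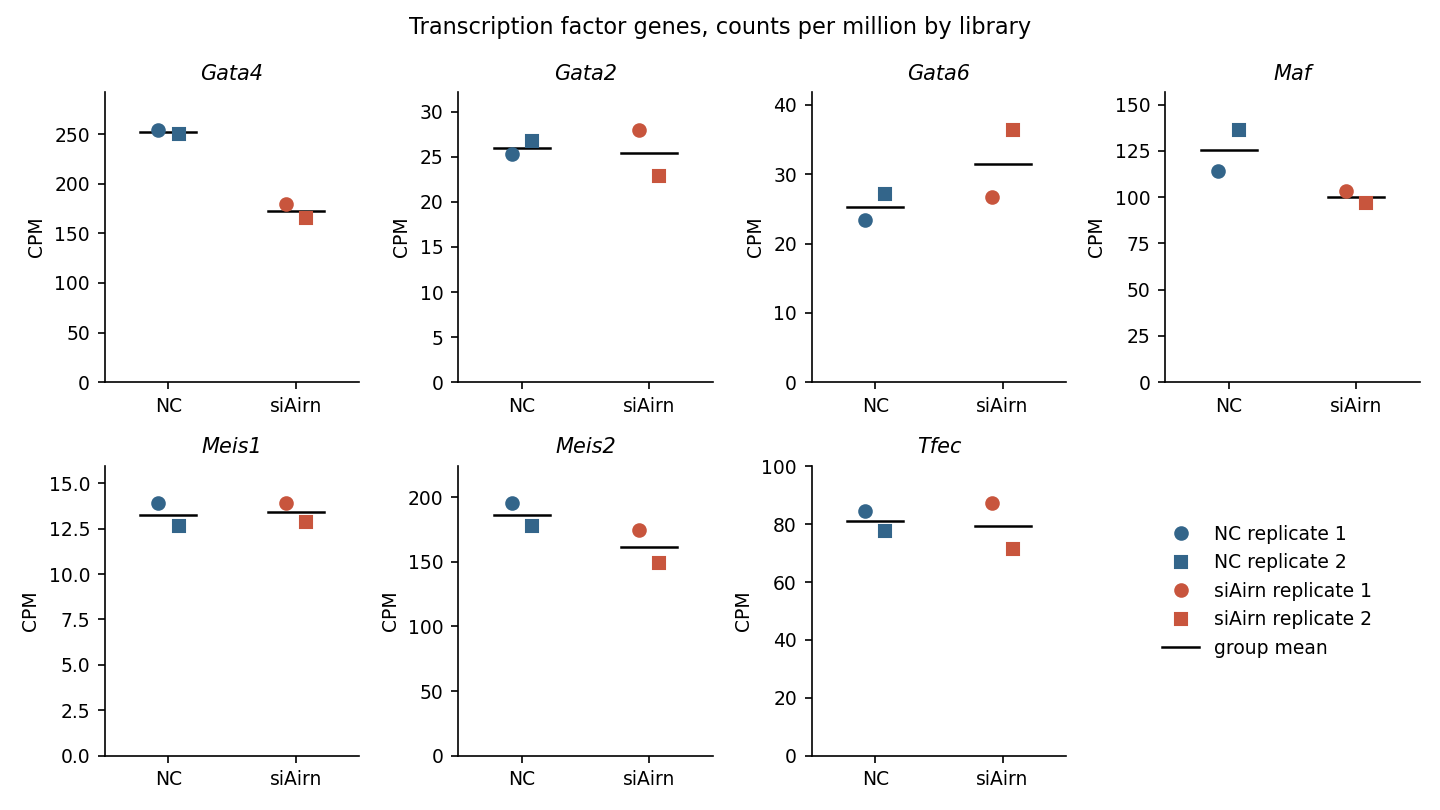
CPM of each gene in each library, from 0. Points are libraries (circles replicate 1, squares replicate 2, blue NC, red siAirn) and black bars are group means of 2 libraries. The wide gap is that of Gata4 (252 against 173 CPM on average); Maf and Meis2 are lower in siAirn by less, and the groups overlap for Gata2, Gata6, Meis1 and Tfec.

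Counted together, 1 of the 7 passed at an adjusted p of 0.05 by edgeR, *Gata4*, which was lower, against 8.56% of all tested genes called lower, 8.27% called higher and 16.8% called in either direction. The same gene alone passed the threshold stated in the methods, a fold change over 1.4 with an unadjusted p under 0.05, which 4.72% of tested genes passed downwards and 9.96% in either direction. The groups did not overlap for 3 of the 7, *Gata4*, *Maf* and *Meis2*, all lower in si*Airn*, whereas 62.7% of all tested genes had groups that did not overlap in one direction or the other. The 3 of 7 are thus no more than the share found over all genes. The median log2 fold change of the 7 was -0.03, beside 0.0013 over all genes tested. The groups of the other 4 genes overlapped, and 5 of the 7 intervals spanned 0, as the plot of fold changes shows.

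**Figure D3:**
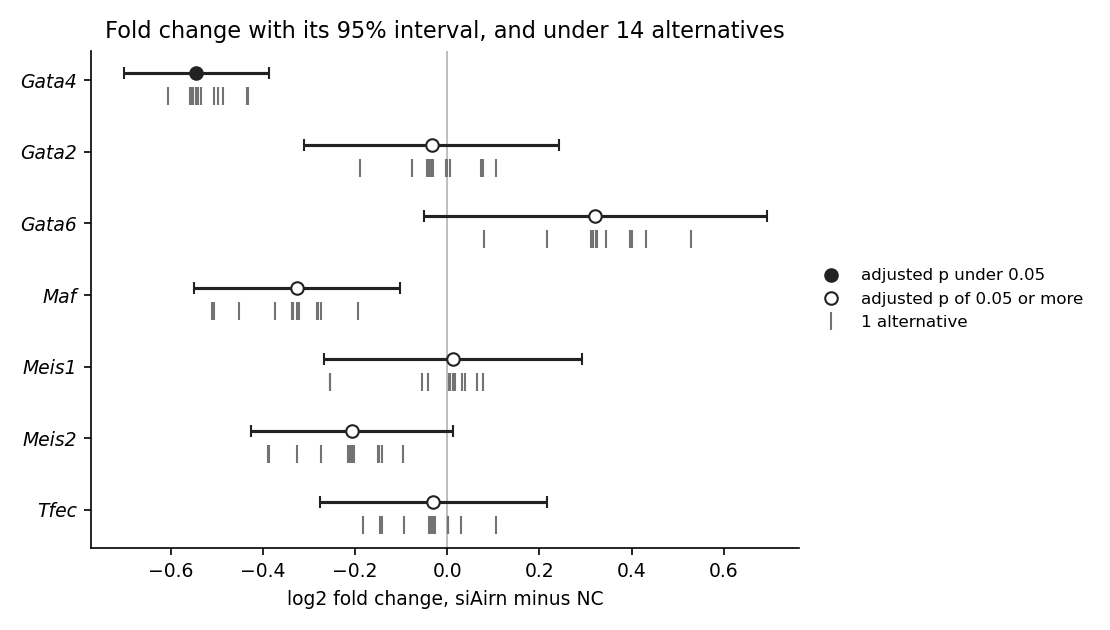
Log2 fold change (siAirn minus NC) of each gene with its 95% interval from edgeR's quasi-likelihood test, filled where the adjusted p was under 0.05. Grey ticks are the values under 14 alternative settings. Gata4 stays between -0.60 and -0.43 under all of them, while the ticks of Gata2, Meis1 and Tfec fall on both sides of 0.

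The likeness of the genes to each other was measured as the root mean square difference between their log2 CPM values over the 4 libraries, each centred on its own mean. *Meis1* and *Tfec* were the closest of the 21 pairs at 0.069, and *Gata4* and *Gata6* the furthest apart at 0.479. The gene closest to *Gata4* among the 7 was *Maf*, at 0.15. Over the 9550 genes that averaged 10 CPM or more, the nearest to *Gata4* were *Reep4* (0.0108), *Stab1* (0.0112) and *Ssbp4* (0.0118). *Gata6* was nearest to *Zc3h12a* (0.0101), *Ass1* (0.0177) and *Nsg1* (0.0181), and *Maf* to *Cox16* (0.016), *Rps21* (0.0216) and *Sac3d1* (0.0221). *Gata2* was nearest to *Fam219b* (0.0118), *Gripap1* (0.0122) and *Gtdc1* (0.0133), and *Meis2* to *Pla2r1* (0.00993), *Pros1* (0.0116) and *Oas1g* (0.0123). *Meis1* was nearest to *Srrt* (0.00362), *Mfsd14b* (0.00787) and *Rin1* (0.00806), and *Tfec* to *Thumpd2* (0.0126), followed by *Fam177a* and 1700047I17Rik2 with the same distance (0.0135). With 4 libraries such likeness is common, and 462 genes lay within 0.1 of *Gata4*, 204 within 0.1 of *Gata6* and 3121 within 0.1 of *Meis1*.

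The partners of the GATA factors were described from a list of 12 genes, of which 10 were tested and 3 passed, 2 lower and 1 higher (against 8.56% and 8.27% of all tested genes). The FOG cofactors moved in opposite directions. *Zfpm1* (FOG1) had 99.2 and 92.0 CPM in the NC libraries against 64.2 and 56.6 in those labelled si*Airn*, with a log2 fold change of -0.66 (SE 0.084, adjusted p = 0.00751 by edgeR). *Zfpm2* (FOG2), a cofactor that also binds GATA4 and GATA6, had 32.0 and 30.2 CPM in the NC libraries against 41.9 and 43.5 in those labelled si*Airn*, with a log2 fold change of 0.46 (SE 0.079, adjusted p = 0.0145 by edgeR). In both cases every si*Airn* library lay outside the range of NC. *Lmo2*, a bridging subunit of the GATA2 and TAL1 complex, fell from 116 ± 8.996 to 85.8 ± 14.3 CPM (SD, n = 2 each), with an adjusted p of 0.0462 by edgeR. *Tal1* and *Ldb1*, other subunits of that complex, had log2 fold changes of -0.02 and -0.04 that did not pass. With the offsets for GC content and length described below, *Zfpm1* still passed at -0.53, whereas *Zfpm2* was 0.27 (adjusted p = 0.0703 by edgeR) and *Lmo2* -0.27 (adjusted p = 0.229). *Lmo2* was also past the threshold no longer without si*Airn* replicate 2 (-0.28) or by limma on log2 FPKM (adjusted p = 0.0518). Without NC replicate 1 or 2 these 3 calls ended, as did almost every call over all genes. The log2 fold change was then -0.61 or -0.72 for *Zfpm1*, 0.50 or 0.41 for *Zfpm2* and -0.36 or -0.52 for *Lmo2*. *Gata1* (0, 0, 0 and 3 counts) and *Gata3* (between 3 and 9 counts) were too low to test, and *Gata5* had between 6 and 13 counts, so the GATA messages of these cells were almost all *Gata4*, *Gata2* and *Gata6*.

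Of the relatives and partners of MAF, 7 of 9 were tested and 1 passed, a share near the 16.8% of all tested genes. *Bach1*, a repressor that pairs with the small MAF proteins, rose from 46.0 ± 1.33 to 65.2 ± 3.27 CPM (SD, n = 2 each), with a log2 fold change of 0.50 (SE 0.073, adjusted p = 0.00989 by edgeR). *Nfe2l2*, which encodes the oxidative stress factor NRF2, was 172 and 201 CPM on average with an adjusted p of 0.0527 by edgeR, and it passed in 6 of 14 alternatives, among them the likelihood-ratio test (0.0354) and limma on log2(FPKM + 1) (0.0435). *Mafa* had at most 2 counts in a library. The 3 small MAF genes, whose products pair with other leucine zipper proteins, had a mean NC FPKM of 47.7 (*Mafk*), 36.9 (*Maff*) and 30.0 (*Mafg*) against 35.1 for *Maf*, and none passed. The TALE homeobox list, the PBX, PREP and TGIF relatives of the MEIS genes, gave 0 calls among 8 tested genes by edgeR's quasi-likelihood test, beside 16.8% of all tested genes. At an unadjusted p under 0.05 the count was 1 (*Pknox2*, at most 32 counts in a library), beside 4631 of all 13628 genes tested. DESeq2 also gave 0 calls at an adjusted p under 0.05, beside 15.1% of all genes. Of the 3 MiT/TFE relatives of *Tfec*, *Tfeb*, a regulator of lysosomal genes, fell from 10.96 ± 1.55 to 7.15 ± 0.444 CPM (SD, n = 2 each), with a log2 fold change of -0.62 with an adjusted p of 0.0393 by edgeR, while *Tfe3* and *Mitf* did not pass. The call of *Tfeb* ended with DESeq2 (-0.61, adjusted p = 0.116) and with the offsets (-0.43, adjusted p = 0.12 by edgeR). It also ended without NC replicate 1 (-0.75), NC replicate 2 (-0.46) or si*Airn* replicate 2 (-0.55). The call of *Bach1* ended without NC replicate 1 (0.53) or NC replicate 2 (0.47), as did almost every call, at a log2 fold change about as large.

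**Figure D4:**
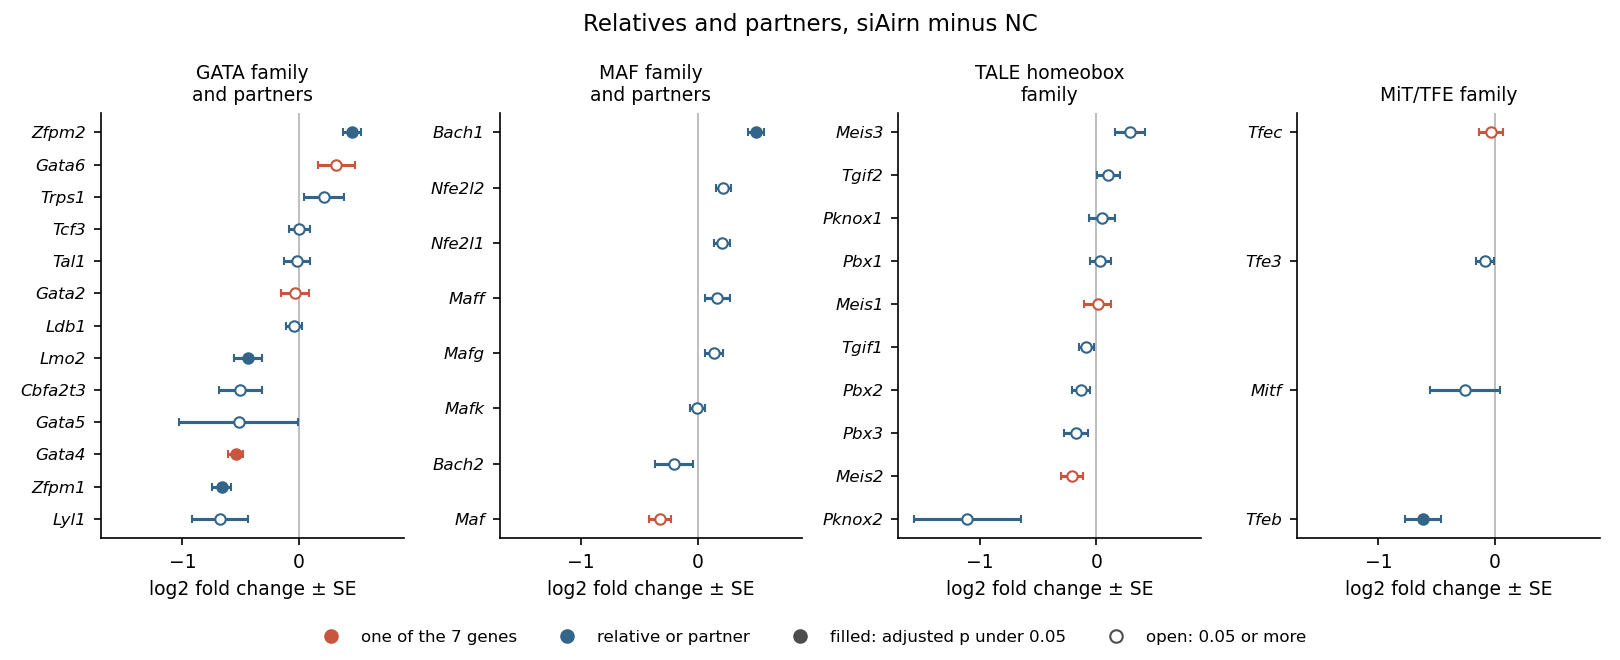
Log2 fold change (siAirn minus NC) with its standard error for the tested genes of the 4 families, red for the 7 genes and blue for relatives and partners, filled where the adjusted p was under 0.05 by edgeR. Zfpm1 (-0.66) and Zfpm2 (0.46) lie on opposite sides of 0, Bach1 (0.50) is the one filled point of the MAF panel, and no point of the TALE panel is filled.

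Most genes that mark sinusoidal endothelium fell. Of 17 such genes 16 were tested, 11 fell and 1 rose (against 8.56% and 8.27% of all tested genes), with a median log2 fold change of -0.57 beside 0.0013 over all genes tested. Without NC replicate 1 or 2 almost all calls on this list ended, as they did over all genes. The 6 with the largest changes were *Clec4g* (a lectin, -1.33), *Dnase1l3* (a secreted DNase, -1.19), *Wnt2* (-1.19), *Lyve1* (the hyaluronan receptor, -0.84), *Fcgr2b* (an Fc receptor, -0.81) and *Gpr182* (a scavenging chemokine receptor, -0.78), all with adjusted p between 0.00496 and 0.00853 by edgeR. *Wnt2*, whose promoter word is shown above, had 23.1 and 27.3 CPM in NC and 12.2 and 9.89 in si*Airn*. *Rspo3*, a WNT enhancer, was the gene that rose (0.47, adjusted p = 0.0456 by edgeR), but it lost the call in 6 of 14 alternatives, DESeq2 (adjusted p = 0.0583) among them. Without NC replicate 1 or 2 the 6 large falls kept their direction, at log2 fold changes from -1.31 to -0.84 or from -1.36 to -0.70. Their calls ended there with almost all others, except that of *Fcgr2b* without NC replicate 1. The study's text names *Flt4*, *Lyve1* and *Stab1* from the same libraries, so the list is not independent evidence of a direction. Of 16 genes of continuous endothelium, 3 fell (*Ly6a*, -1.51; *Pecam1*, -0.53; *Col4a2*, -0.32) and *Cavin2* rose (0.31), with a median of -0.31, beside 16.8% of all tested genes called in either direction. *Cavin2* lost its call in 4 of 14 alternatives, among them the GC and length offsets (adjusted p = 0.0769 by edgeR). *Pecam1* and *Col4a2* lost theirs without either NC library, where almost no gene passed. The calls on this list went from 4 to 10 with a replicate block, beside 35.5% of all genes, and to 12 with block and offsets, beside 32.6%. They also moved with a library left out, and almost none remained without either NC library. *Gata4* at -0.54 lay near the median of the sinusoidal list (-0.57) and also near that of the pan-endothelial markers (-0.50). *Gata2* (-0.03), *Meis1* (0.01) and *Tfec* (-0.03) lay near 0.

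Summed endothelial, macrophage and hepatocyte markers separated the groups, whereas the stellate cell sums overlapped, and the values of the 7 genes are set beside them here. Of the 13 pan-endothelial markers 10 fell (against 8.56% of all tested genes), with a median log2 fold change of -0.50, and *Kdr*, *Tek* and *Emcn* did not pass. Taken per 1000 CPM of the summed pan-endothelial markers, a ratio chosen after the values were seen, *Gata4* stood at 20.7 and 21.5 in NC and at 20.2 and 21.3 in si*Airn*. On this scale the *Gata4* groups overlapped and the highest library was 1.07 times the lowest. The outcome turned on the marker, because *Gata4* per CPM of *Kdr*, the VEGF receptor gene, was 0.404 and 0.453 in NC against 0.278 and 0.3004 in si*Airn*, and per CPM of *Pecam1* it was 0.155 and 0.167 against 0.151 and 0.170. On the summed endothelial scale *Tfec* stood at 6.88 and 6.66 in NC against 9.77 and 9.16 in si*Airn*, and *Meis2* at 15.9 and 15.3 against 19.6 and 19.1, so both were higher in si*Airn* relative to this sum. *Meis1* (1.13 and 1.09 against 1.56 and 1.65) and *Gata2* (2.06 and 2.30 against 3.14 and 2.93) were higher on it as well, and *Gata6* stood furthest apart (1.90 and 2.33 against 2.99 and 4.67). *Maf* was not lower on it, at 9.30 and 11.7 in NC against 11.5 and 12.4 in si*Airn*, with groups that overlapped. Here too the outcome turned on the marker, because per CPM of *Kdr* *Meis2* was 0.31 and 0.322 in NC against 0.27 and 0.27 in si*Airn* and *Maf* 0.181 and 0.247 against 0.159 and 0.175, both lower, while the groups of *Tfec* (0.134 and 0.14 against 0.135 and 0.129), *Gata2*, *Gata6* and *Meis1* overlapped. The part of endothelial content in these values was not tested.

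Stellate cell and fibroblast markers had summed CPM of 1802 and 2182 in NC against 2099 and 2716 in si*Airn*, and 4 of 15 passed, all higher (against 8.27% of all tested genes). *Gata6*, which stellate cells also express, followed them library by library. Per 1000 CPM of that sum it stood at 12.95 and 12.4 in NC and at 12.7 and 13.4 in si*Airn*, the highest 1.08 times the lowest. *Gata4*, which stellate cells also express, did not follow them, at 141 and 115 per 1000 CPM of that sum in NC against 85.8 and 61.1 in si*Airn*. Hepatocyte markers had sums of 686 and 860.1 in NC against 951 and 1236 in si*Airn*, with 2 of 13 tested passing, both higher (against 8.27% of all tested genes), and their sum was again highest in si*Airn* replicate 2. Most of that sum was *Alb*, at 497 and 638 CPM in NC against 705 and 900 in si*Airn*. *Alb* itself did not pass (adjusted p = 0.0598 by edgeR). Per 1000 CPM of the hepatocyte sum *Gata6* stood at 34.05 and 31.5 in NC against 28.0 and 29.5 in si*Airn*. There the highest library was 1.21 times the lowest, so near-level values were not particular to the stellate sum. Macrophage markers had sums of 294 and 362 in NC against 222 and 185 in si*Airn*, and 10 of 14 tested genes passed, all lower (against 8.56% of all tested genes). *Maf*, which macrophages express, had the same order of libraries as this sum, highest in NC replicate 2 and lowest in si*Airn* replicate 2. Per 1000 CPM of the macrophage sum it stood at 388 and 377 in NC and at 465 and 524 in si*Airn*. None of the cholangiocyte, lymphocyte or neutrophil markers that could be tested passed by edgeR. The macrophage sum was between 2.37% and 3.11% of the endothelial sum in the 4 libraries, and the part of any of these cells in the values of *Gata6* and *Maf* was not tested.

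**Figure D5:**
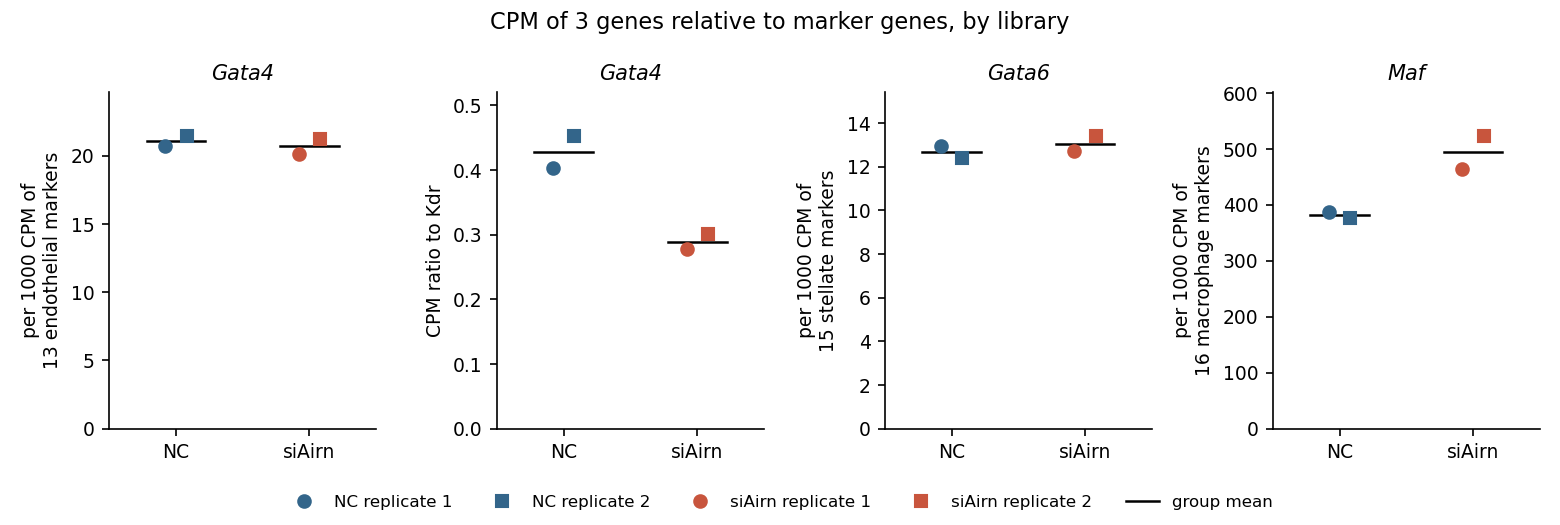
CPM of Gata4, Gata6 and Maf in each library relative to marker genes, from 0. Points are libraries (circles replicate 1, squares replicate 2) and bars group means. Gata4 is level per 1000 CPM of 13 endothelial markers (20.2 to 21.5) and lower in siAirn per CPM of Kdr, Gata6 is level per 1000 CPM of 15 stellate cell markers (12.4 to 13.4), and Maf is higher in siAirn per 1000 CPM of 16 macrophage markers.

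The fold changes also moved with the base composition and length of the transcripts. Over the 12900 tested genes with an annotation, log2 fold change had a Spearman rho of -0.333 with GC content and 0.364 with length, given as a description across genes, which are not independent. The 3 GATA genes are GC-rich, with 57.4% for *Gata4*, 58.2% for *Gata2* and 55.3% for *Gata6*, whereas *Maf* has 47.4%, *Meis2* 43.8%, *Meis1* 42.4% and *Tfec* 40.3%. With offsets for GC content and length fitted per library, the log2 fold change of *Gata4* was -0.43 (adjusted p = 0.0141 by edgeR), so it kept its direction and its side of the threshold. *Maf* (-0.51, adjusted p = 0.0349) and *Meis2* (-0.39, adjusted p = 0.0491) then passed as well by the same test, which makes 3 of the 7 genes, beside 8.26% of all genes called with these offsets. *Gata2* became 0.08 and *Meis1* -0.25, without passing. Whether base composition accounts for any of these differences was not tested.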

How the data were processed

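RNA-seq of 4 libraries of primary mouse LSECs (2 NC, 2 si*Airn*, grouped by their labels) was read as single ends of 50 bases on the BGISEQ-500. The authors deposited estimated counts, not normalized, and a further value per gene that the header does not name and that was read as FPKM computed by the authors. The submitters' processing notes name BWA, Bowtie2, RSEM and, for these mouse samples, the human build hg19. Roles and versions are not given in the sources used here.

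Counts were rounded to whole numbers and tested with edgeR 4.0.16 under R 4.3.3 (TMM, filterByExpr, quasi-likelihood test, no covariate). P-values were adjusted by Benjamini-Hochberg over all 13628 genes tested. Alternatives used DESeq2 1.42.0, limma 3.58.1, other normalizations, filters and thresholds, a replicate block, splines on GC content and length (5 degrees of freedom each, GENCODE M21), and each library left out in turn. The calculations were tested on simulated data.

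The 7 members and all lists were chosen with earlier results of these data known. Named are the 7 genes, *Airn*, up to 6 called genes with the largest change of each list, 3 nearest genes per member, and others where a member is compared with them. *Tfec* and *Meis1*, *Zfpm1* and *Wnt2* windows were chosen for printing after the values were seen. With 2 against 2 libraries an exact permutation test cannot go below 0.333, so no single-gene permutation test is given. 1 gene of the MAF list is not reported here.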

Additional observations from a re-analysis of the deposited data

How the results depend on the processing

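The fall of *Gata4* kept its direction in 14 of 14 alternatives and its side of the threshold in 12, and lost it without NC replicate 1 or 2 (log2 fold change from -0.60 to -0.49 over the 4 fits without a library). The labels number the replicates alike in both groups but do not say whether equal numbers share a preparation (correlation of their deviations across genes 0.197). In both groups the stellate cell and hepatocyte sums were higher, and the endothelial sum lower, in replicate 2. The macrophage sum did not differ alike in the groups. With 2 pairs a shared preparation was not tested. The replicate block called 4841 genes (35.5%) and 4 of the 7, *Gata4* and also *Gata6* (0.32, adjusted p = 0.0139), *Maf* (-0.32, 0.00523) and *Meis2* (-0.21, 0.00736). With the replicate block and GC and length offsets together, 5 of the 7 passed (32.6% of all genes): *Gata4*, *Gata6* (0.40), *Maf* (-0.51), *Meis2* (-0.39) and *Tfec* (-0.14). *Gata2* (0.073) and *Meis1* (-0.26) changed sign there. With the offsets alone 3 passed (8.26% of all genes), *Maf* at -0.51 and *Meis2* at -0.39, and *Gata2* (0.077) and *Meis1* (-0.25) changed sign. DESeq2 (-0.32) and the likelihood-ratio test (-0.33) called *Maf*, which makes 2 of the 7 in each (15.1% and 23.0% of all genes). By limma on log2 FPKM, *Tfec* was 0.0011 with a pseudocount of 1 and 0.0010 with one of 0.1. Without 1 library, between 0 and 4 of the 7 passed (of all genes, at most 40 without an NC library, and 2410 or 1446 when si*Airn* replicate 1 or 2 was left out) and between 1 and 2 passed the threshold of the methods; the log2 fold change ran from -0.19 to 0.11 for *Gata2*, 0.079 to 0.53 for *Gata6*, -0.45 to -0.19 for *Maf*, -0.055 to 0.078 for *Meis1*, -0.33 to -0.10 for *Meis2* and -0.18 to 0.11 for *Tfec*. None of the 7 passed a fold change over 2. Per length of the longest transcript, CPM was 7.20 for *Gata2*, 17.7 for *Maf*, 1.77 for *Meis1*, 31.7 for *Meis2* and 23.7 for *Tfec*. The cause of these shifts was not tested. Depth limits *Meis1* most, with 228 to 251 counts a library. Among the relatives, the TALE list went from 0 calls to 4 with the block and the offsets together, the MAF list from 1 to 6, the GATA list from 3 to 5 and the continuous endothelial list from 4 to 12 (10 with the block alone), while calls over all genes rose from 16.8% to 32.6%. Among genes that did not pass, *Tal1* changed sign by limma (0.0092 with both pseudocounts), with the offsets (0.011) and with block and offsets (0.0057), and *Ldb1* with the offsets (0.084) and with both (0.083). Without 1 library *Tal1* ran from -0.19 to 0.14 and *Ldb1* from -0.11 to 0.028.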
